A study of Homo sapiens with 21 samples.

Results

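The collagen genes were taken as all protein-coding genes whose symbol is COL, a number, A and a number, that averaged 1 count or more over the libraries. All 44 such genes of the annotation passed this limit, out of 30549 genes tested and 57820 genes counted. By the class of protein they encode, 11 were fibrillar, 10 fibril-associated, 6 basement membrane, 5 beaded filament, 4 transmembrane, 3 hexagonal network and 2 multiplexin collagens. One gene encoded the anchoring fibril collagen, and 2 (COL26A1 and COL28A1) belonged to no large class.

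Collagens are extracellular proteins in which chains wind into a triple helix. Fibrillar chains form the load-bearing fibrils of connective tissue, fibril-associated chains decorate them, type IV chains form the sheet of basement membranes, and type VI chains form beaded microfilaments around cells. Ewing sarcoma is a tumor of bone and soft tissue with little stroma of its own, and its fusion protein EWS/FLI is known both to activate and to repress genes, with matrix and adhesion genes among those repressed.

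The values come from RNA-seq of the established Ewing sarcoma line A673, in 21 libraries of 7 groups with 3 replicates each. All cells received an shRNA by retrovirus on day 1 and a vector by retrovirus on day 5, and all were kept under selection until day 16, with puromycin at 2 µg/ml and hygromycin at 400 µg/ml. iLuc cells carried an shRNA against luciferase and an empty vector, and kept the endogenous fusion. iEF cells carried the shRNA against the fusion and an empty vector, and the other 5 groups carried that shRNA with a FLAG-tagged construct. These were the full-length fusion (WT-EF), a form without the EWS domain (Δ22), a form with alanine in place of repeat tyrosines of the EWS domain (DAF), a form with a shortened EWS domain (mut9), and that shortened form with alanine in place of its repeat tyrosines (DAF-mut9). The cells were selected populations of one line, used because it keeps growing without the fusion. Every DAF-mut9 value rests on reading the columns named mut9d as that group. The tyrosine set substituted in DAF is not that substituted in DAF-mut9. By the study's description, only the amino-terminal repeat tyrosines were changed in DAF. In DAF-mut9 every repeat tyrosine of the shortened domain was changed.

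Libraries held 32897083 to 46210348 counts in genes, so that 1 CPM (a count scaled to a common library size, with TMM factors) stood for 32 to 45.2 counts. FLI1, whose reads include those of the fusion, was at 61.3, 60.6 and 89 CPM in iLuc and at 20.8, 20.0 and 21.1 in iEF, a log2 fold change of 1.75 ± 0.14, adjusted p = 1.33e-09. In WT-EF it was at 21.9, 25.2 and 26.5 CPM and was not called against iEF (0.24 ± 0.13, adjusted p = 0.196), whereas it was higher than in iEF with each of the other constructs. The counts do not separate the construct from the endogenous transcript. Of the Ewing sarcoma markers, NKX2-2, NR0B1, STEAP1 and CCND1 were higher in iLuc and in WT-EF than in iEF. For CCND1 the libraries of both groups overlapped those of iEF. It was at 1929, 2133 and 1825 CPM in iLuc, 2223, 2117 and 1808 in WT-EF and 1889, 1312 and 1603.5 in iEF. CD99 was near 0 in every group (means of 0.0174 to 0.129 CPM), at odds with its use as a marker. The cause of this was not tested, and these counts alone do not show that the cells lack CD99 RNA. Markers of leukocytes, epithelium and endothelium reached a group mean of at most 2.93 CPM (CD14 in DAF). Single libraries also differed from their group in the collagens. Δ22 replicate 3 was the lowest of its group for 28 of the 44 genes, with a median difference from the group mean of -0.45 on the log2 scale. Highest of their groups for 20 or more genes were iLuc replicate 2 (24, median 0.36), Δ22 replicate 2 (22, median 0.32) and iEF replicate 2 (21, median 0.23), and lowest were iLuc replicate 3 (20, median -0.2) and iEF replicate 1 (20, median -0.3). Over all genes tested the medians of these 6 libraries lay between -0.02 and 0.04.

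Collagen transcripts made up the smallest share of counts in cells that kept the fusion. In iLuc the 44 genes took 0.116%, 0.156% and 0.0853% of the counts of the 3 libraries. In iEF the shares were 0.444%, 0.765% and 0.443%. Every iEF library thus lay above every iLuc library, and its second replicate lay above the rest of its group. WT-EF, at 0.216%, 0.24% and 0.223%, lay between iLuc and iEF without touching either. The mean share was 0.35% ± 0.0405 (SD, n = 3) in mut9, 0.445% ± 0.0116 in DAF, 0.473% ± 0.034 in DAF-mut9 and 0.432% ± 0.134 in Δ22, where replicate 3 was at 0.278% and the others at 0.491% and 0.526%. Replicates 1 and 3 of iEF were no higher than the means of DAF and DAF-mut9. In bulk RNA, fewer cells that make collagen and less collagen RNA per cell cannot be told apart.

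The makeup of this collagen pool differed as well. To compare genes of different length, CPM were divided by the kilobases of exon (CPM per kb). Beaded filament chains held 51% ± 2.52 of the summed CPM per kb in iEF, but 5.9% ± 0.602 in iLuc and 12.2% ± 2.93 in WT-EF. Fibrillar chains held 35% ± 3.55 in iEF, 51.4% ± 3.46 in iLuc and 64.4% ± 2.3 in WT-EF. Fibril-associated chains held 22.6% ± 4.02 in iLuc against 3.33% ± 0.234 in iEF. mut9 stood between WT-EF and iEF, with 22.5% ± 5.74 for beaded filament and 54.5% ± 5.59 for fibrillar chains, and in DAF, Δ22 and DAF-mut9 the beaded filament share was 35.8% to 40.9%. The summed level of beaded filament chains was 340 CPM per kb in iEF and 6.76 in iLuc, whereas that of fibril-associated chains was 22.7 and 27.0. By the mean over all libraries, the highest single genes were COL6A2 at 86 CPM per kb, COL5A2 at 68.5, COL1A2 at 66.0 and COL6A1 at 61.5, followed at a distance by COL3A1 at 19.9. This order did not hold in iLuc, where COL5A2 was at 30.6 CPM per kb, COL21A1 at 20.0 and COL1A2 at 17.0, with COL6A1 at 3.88 and COL6A2 at 2.67.

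**Figure D1:**
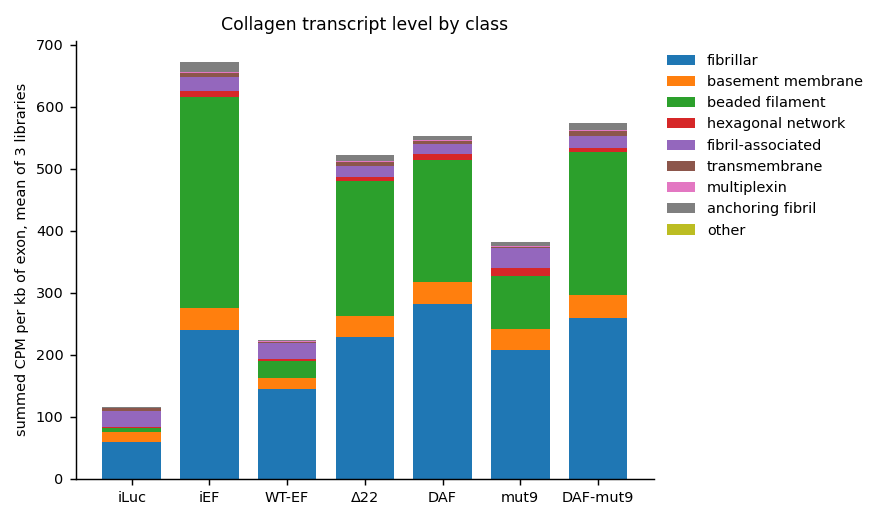
Summed collagen level in each group, in CPM per kb of exon as the mean of 3 libraries (y axis), for the 7 groups (x axis), stacked by class of collagen. The beaded filament part is the largest block in iEF, at 340 CPM per kb, and is 6.76 CPM per kb in iLuc.

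The first question was which collagen genes depend on the endogenous fusion. Compared with iEF, 28 of the 44 genes were lower in iLuc, beside 22.4% of all genes tested, and 2 were higher, beside 18.7%, by edgeR's quasi-likelihood test at a Benjamini-Hochberg adjusted p below 0.05. The median log2 fold change was -1.62 over the collagens and 0.01 over all genes, and -1.62 also with COL22A1 at its bound. 9 of 11 fibrillar genes were lower, as were 4 of 5 beaded filament, 4 of 6 basement membrane, 5 of 10 fibril-associated, 2 of 4 transmembrane, 1 of 3 hexagonal network and both multiplexin genes, and the anchoring fibril gene. The higher genes were COL21A1 and COL25A1. Of the 30 calls, 28 held with each library left out and under every alternative setting that had a value for the gene. The ComBat-adjusted values, one of these settings, had none for COL4A6, COL6A2, COL6A3, COL11A1, COL15A1 and COL22A1, all 6 of which were called here, and counts of calls that held are given on this basis below. COL4A4 lost its call with the compared groups alone (-1.11), with iLuc replicate 1 left out (-0.79) and with iLuc replicate 3 left out (-0.83), and COL5A2 in the ComBat-adjusted values (-0.51) and with iEF replicate 2 left out (-0.42). Among all genes tested, 19.6% had all iLuc libraries above all iEF libraries and 22.7% had all below. The shares were 18.3% and 19.9% for WT-EF, 13.4% and 12.9% for mut9 and 9.58% and 10.4% for DAF. For DAF-mut9 they were 8.38% and 9.06%, and for Δ22 6.77% and 7.48%. Lack of overlap with iEF is to be read beside these shares. Below, log2 fold changes are against iEF unless another group is named, and are given ± SE.

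**Figure D2:**
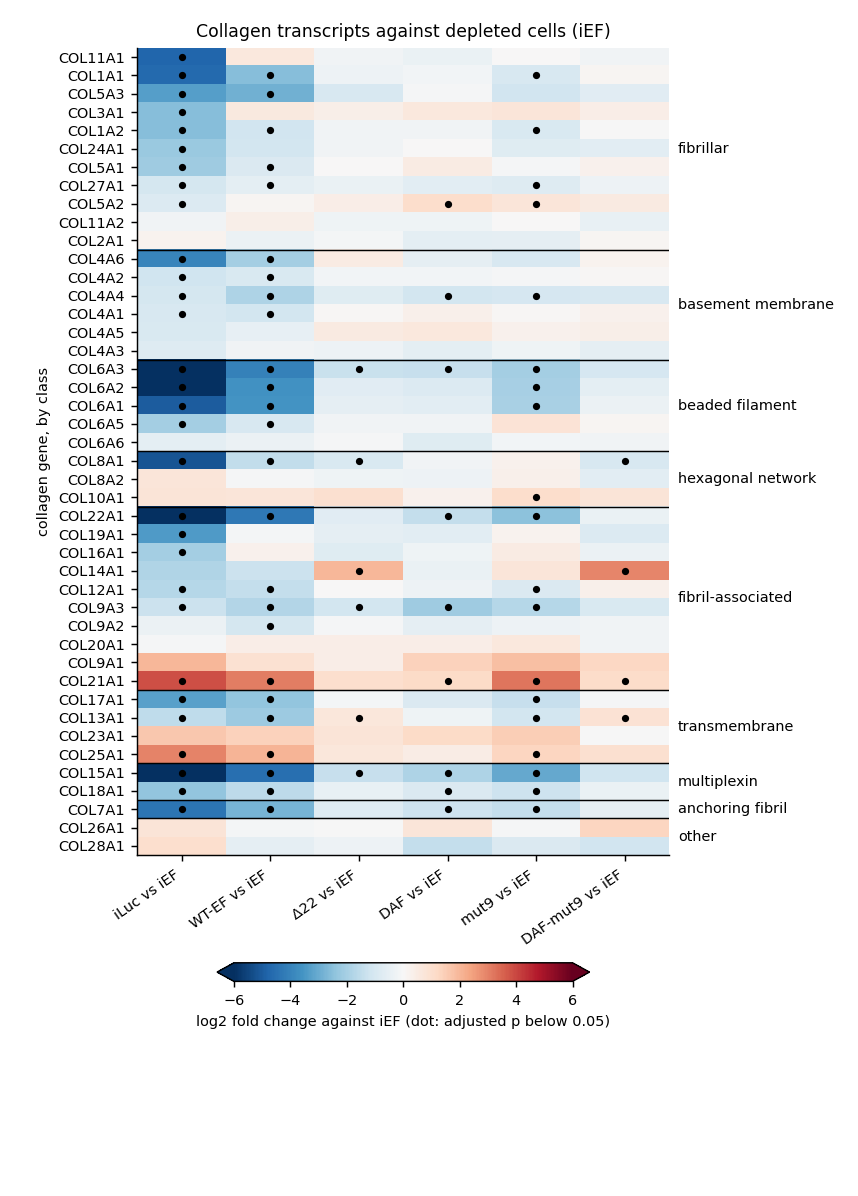
Log2 fold change against iEF (color, from -6 to 6) of the 44 collagen genes (rows, by class and, within a class, from the lowest value in iLuc) in the 6 other groups (columns). A black dot marks an adjusted p below 0.05. iLuc holds 28 dots for lower and 2 for higher genes, and DAF-mut9 holds 1 and 3.

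The genes of collagen VI, which lines the cell surface in most tissues and binds cells to the surrounding matrix, included some of those with the largest differences. COL6A3 (ENSG00000163359, chr2:238232646-238322971) encodes the longest chain of the trimer, and COL6A1 (ENSG00000142156, chr21:47401684-47424964) and COL6A2 (ENSG00000142173, chr21:47518026-47552762) the shorter ones, with positions in hg19. COL6A3 was at 3.88, 2.61 and 2.31 CPM in the iLuc libraries and at 482, 1126 and 265 in iEF, a log2 fold change of -7.65 ± 0.47, adjusted p = 4.82e-11. The groups did not overlap, although iEF replicate 2 held more than the other iEF libraries together. COL6A2 was at 12.5, 18.9 and 11.3 CPM in iLuc and 784, 1242 and 977 in iEF (-6.15 ± 0.31, adjusted p = 3.14e-12), and COL6A1, its partner chain, at 19.4, 30.6 and 14.4 and 582, 863 and 608 (-5.01 ± 0.31, adjusted p = 5.03e-11). All 3 iEF libraries were above all iLuc libraries for both. COL6A5 and COL6A6, which encode rarer alternative chains, reached at most 3.34 and 0.757 CPM in a library. COL6A5 was lower in iLuc (-2.05 ± 0.35, adjusted p = 7.74e-05), with 2, 9 and 18 counts against 16, 32 and 56 in iEF, so that the groups overlapped, and COL6A6 was not called (-0.59 ± 0.39, adjusted p = 0.252).

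The means of the 3 main chains followed 1 order over the groups, from iLuc through WT-EF, mut9, DAF, Δ22 and DAF-mut9 to iEF. COL6A2 was at 107, 78.5 and 59.4 CPM in WT-EF, at 317, 174 and 266 in mut9, at 544, 618 and 556 in DAF, at 599.5, 646 and 709 in DAF-mut9 and at 715, 836 and 366 in Δ22. WT-EF lay below every other group but iLuc, and mut9 below every other group but iLuc and WT-EF, without overlap, whereas DAF, DAF-mut9 and Δ22 overlapped each other. Against iEF the gene was lower in WT-EF (-3.63 ± 0.28, adjusted p = 5.55e-09) and mut9 (-1.97 ± 0.26, adjusted p = 1.64e-05), and was not called in DAF (-0.8 ± 0.25, adjusted p = 0.0569), DAF-mut9 (-0.6 ± 0.25, adjusted p = 0.241) or Δ22 (-0.68 ± 0.25, adjusted p = 0.186). COL6A1 gave -3.58 ± 0.29, adjusted p = 1.03e-08 in WT-EF and -1.93 ± 0.27, adjusted p = 3.37e-05 in mut9, and no call in the other 3 groups. COL6A3 was at 44.5, 42.1 and 22.1 CPM in WT-EF (-4.06 ± 0.39, adjusted p = 1.08e-07) and 166, 109 and 131 in mut9 (-2.06 ± 0.36, adjusted p = 0.000399). It was lower also in DAF (-1.37 ± 0.35, adjusted p = 0.0193) and in Δ22 (-1.32 ± 0.35, adjusted p = 0.0473), and these 2 calls rested on few libraries. That in DAF was lost without any one of iEF replicate 2 and DAF replicates 1 or 2 (-1.32 to -0.72), and that in Δ22 was lost without the replicate block (-1.29) and in 14 of the 21 fits with 1 library left out (-1.57 to -0.62).

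The stretch before the start of COL6A2 and of COL6A3, shown because these genes were among those with the largest differences, was read from RefSeq (GRCh38.p14, not the hg19 build of the counts) as the 250 bases before the start on the strand of the gene. Capitals mark each GGAA or TTCC, the core to which ETS proteins such as FLI1 bind.
COL6A2 (chr21:46097862-46098111, plus strand): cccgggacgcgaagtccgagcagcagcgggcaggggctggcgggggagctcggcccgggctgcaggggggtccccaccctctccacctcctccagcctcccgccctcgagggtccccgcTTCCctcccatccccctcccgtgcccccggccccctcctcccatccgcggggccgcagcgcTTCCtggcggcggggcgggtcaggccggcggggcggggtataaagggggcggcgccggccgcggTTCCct
COL6A3 (chr2:237414165-237414414, minus strand): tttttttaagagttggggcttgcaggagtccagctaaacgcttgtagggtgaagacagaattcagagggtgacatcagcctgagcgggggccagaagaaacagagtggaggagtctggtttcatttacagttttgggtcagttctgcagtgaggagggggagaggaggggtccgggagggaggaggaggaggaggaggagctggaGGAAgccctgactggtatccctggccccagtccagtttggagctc
COL6A2 held 3 such cores and COL6A3 held 1. Of the 44 collagen genes 32 were matched by symbol, in 44 windows, and COL14A1, COL1A1, COL1A2, COL20A1, COL22A1, COL2A1, COL3A1, COL5A2, COL6A1, COL6A5, COL8A1 and COL9A3 had no entry. GGAA or TTCC was found in 40 of the 44 windows, and in 92.7% of all 35116 windows of that length. Repeats written GGAAGGAA (TTCCTTCC on the other strand), of which GGAA is a part, were in 0 of the 44 windows and in 3.06% of all windows, and the ETS site CCGGAAGT (ACTTCCGG), which also holds GGAA, was in 0 and in 3.42%. This says only that these letters are not in these windows.

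Of the fibrillar collagens, the chains of type I, the main collagen of bone and tendon, were lower in iLuc. COL1A1 was at 9.84, 6.85 and 14.4 CPM in iLuc and 269.8, 318 and 215 in iEF (-4.67 ± 0.33, adjusted p = 3.34e-10), and COL1A2 at 212, 253 and 87.7 and 861, 1562 and 711 (-2.55 ± 0.21, adjusted p = 4.63e-09). Neither gene overlapped between the groups. WT-EF brought COL1A1 to 54.2, 36 and 47.8 CPM (-2.54 ± 0.29, adjusted p = 1.18e-06) and COL1A2 to 439, 513 and 404 (-1.14 ± 0.2, adjusted p = 0.000197). mut9 brought them to 161, 112 and 135 (-0.98 ± 0.28, adjusted p = 0.0216) and 621, 627 and 404 (-0.9 ± 0.2, adjusted p = 0.00406). In DAF, Δ22 and DAF-mut9 neither was called, with COL1A1 at 249, 220.0 and 238 CPM in DAF, 261, 292 and 104 in Δ22 and 299, 348 and 229 in DAF-mut9. Δ22 replicate 3 was low for both, at 104 and 544 CPM. The mut9 call of COL1A1 was lost in the ComBat-adjusted values (-0.84), with iEF replicate 2 left out (-0.81) and with mut9 replicate 2 left out (-0.83), and that of COL1A2 without the replicate block (-0.92).

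The chains of type V collagen, which sets the width of type I fibrils, did not move alike. COL5A1 was at 38, 58.3 and 42.7 CPM in iLuc and 192, 257 and 166 in iEF (-2.14 ± 0.16, adjusted p = 1.32e-09), and COL5A3 at 7.86, 9.79 and 15 and 51, 91.6 and 184 (-3.31 ± 0.45, adjusted p = 3.88e-06). COL5A2 differed less, at 256, 292 and 124 and 264, 655 and 275 CPM (-0.81 ± 0.22, adjusted p = 0.00597), and its groups overlapped, since iEF replicates 1 and 3 lay within the iLuc range. It was 1 of the 2 collagens higher than in iEF with DAF, at 774, 829 and 759.5 CPM (1.07 ± 0.22, adjusted p = 0.00459), above every iEF library. In mut9 it was at 732, 684 and 488 CPM (0.74 ± 0.22, adjusted p = 0.0295), overlapping iEF, a call that was lost without the replicate block (0.67), with the compared groups alone (0.76) and without any one of iEF replicates 1 or 3 and mut9 replicates 1 or 3 (0.5 to 0.77). In WT-EF the 3 libraries held 398, 404 and 406 CPM, inside the iEF range (0.11 ± 0.22, adjusted p = 0.771). COL5A1 and COL5A3 were lower in WT-EF, at 109.7, 108 and 118 (-0.85 ± 0.16, adjusted p = 0.000326) and 18.8, 15.8 and 9.63 CPM (-2.86 ± 0.45, adjusted p = 4.32e-05), and were called in no other construct. COL5A3 shares 3.98% of its exon bases with a gene on the opposite strand, and counting by strand is not stated, so its counts are uncertain to that extent.

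Some genes were lower in iLuc but not called lower in WT-EF. COL11A1, a chain of the thin fibrils of cartilage, was at 0.796, 0.553 and 0.626 CPM in iLuc and 14.9, 26.5 and 11.2 in iEF (-4.78 ± 0.46, adjusted p = 3.46e-08). In WT-EF it was at 24.1, 16.9 and 44.7 CPM, with 0.61 ± 0.36, adjusted p = 0.233 against iEF and 5.39 ± 0.46, adjusted p = 5.29e-08 against iLuc. COL3A1, the fibrillar collagen of vessels and elastic tissues, was at 17.6, 21.8 and 16.3 CPM in iLuc, 51.6, 271 and 59.1 in iEF and 140.3, 198 and 155 in WT-EF. It was lower in iLuc (-2.56 ± 0.33, adjusted p = 2.31e-06), was not called in WT-EF against iEF (0.59 ± 0.31, adjusted p = 0.181) and was higher in WT-EF than in iLuc (3.15 ± 0.34, adjusted p = 8.95e-07). For both genes every library of the 6 depleted groups was above every iLuc library, and no construct was called against iEF. The fibril-associated genes COL19A1 and COL16A1 were also lower in iLuc and not called in WT-EF against iEF. COL19A1 was at 0.771, 0.729 and 0.451 CPM in iLuc, 5.9, 6.63 and 7.67 in iEF and 6.41, 6.99 and 5.21 in WT-EF, with -3.38 ± 0.49, adjusted p = 9.54e-06 in iLuc and 3.25 ± 0.49, adjusted p = 6.18e-05 in WT-EF against iLuc. COL16A1 was at 19.5, 21.2 and 14, 60.1, 127 and 48.8 and 86.8, 101 and 81.3 CPM in these groups, with -2.06 ± 0.28, adjusted p = 4.06e-06 and 2.33 ± 0.28, adjusted p = 4.31e-06. For COL16A1 the depleted groups were not all above iLuc, since Δ22 replicate 3 was at 19.3 CPM. FLI1 was also at a lower level in WT-EF than in iLuc (means of 24.5 and 70.3 CPM), and the part of this in the result was not tested. By the study's description, the shRNA is directed at the untranslated end of the fusion transcript and the constructs are cDNAs. Whether the constructs hold that end is not stated, so these CPM need not compare numbers of transcripts. These 4 genes were set together after their values were seen. COL5A2 and COL24A1 were likewise lower in iLuc and not called in WT-EF against iEF.

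COL27A1 and COL24A1, fibrillar collagens with a shorter helix, were both lower in iLuc, COL27A1 at 13.9, 22.6 and 30.8 against 38, 60.6 and 39.6 CPM (-1.04 ± 0.21, adjusted p = 0.000494) and COL24A1 at 1.02 CPM or less in each group mean (-2.22 ± 0.52, adjusted p = 0.0017), with 8 counts in iEF replicate 2 and 10 and 13 in the higher iLuc libraries. COL2A1 and COL11A2, both chains of cartilage fibrils, were not called in iLuc (0.21 ± 0.43, adjusted p = 0.75 and -0.19 ± 0.21, adjusted p = 0.508), and COL2A1 stayed between 0.271 and 1.16 CPM in all 21 libraries. In WT-EF the call of COL27A1 (-0.6 ± 0.21, adjusted p = 0.0395) was lost in the ComBat-adjusted values (-0.38) and without any one of iEF replicate 2, WT-EF replicates 1, 2 or 3, DAF replicate 3 and mut9 replicates 1, 2 or 3 (-0.6 to -0.38). In mut9 COL27A1 was lower as well (-0.76 ± 0.21, adjusted p = 0.0178), a call lost without any one of iEF replicate 2 and mut9 replicates 2 or 3 (-0.74 to -0.55).

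COL8A1 (ENSG00000144810, chr3:99357319-99518070, hg19), a chain of the hexagonal network under endothelia, had the smallest SE among the collagens with differences of like size. It was at 2.18, 2.83 and 2.96 CPM in iLuc and 91.7, 105 and 93.5 in iEF (-5.18 ± 0.19, adjusted p = 6.08e-14). It was at 44.5, 27.2 and 34.2 CPM in WT-EF (-1.47 ± 0.16, adjusted p = 5.07e-07), at 62.5, 52.6 and 39.5 in Δ22 (-0.92 ± 0.16, adjusted p = 0.00298) and at 51.6, 51.3 and 48.6 in DAF-mut9 (-0.94 ± 0.16, adjusted p = 0.0018), all below every iEF library. In DAF it was at 92.6, 77.6 and 85 CPM (-0.19 ± 0.16, adjusted p = 0.566) and in mut9 at 123, 104 and 124 (0.27 ± 0.16, adjusted p = 0.306), neither called. WT-EF and Δ22 adjoined, since Δ22 replicate 3 (39.5 CPM) was below WT-EF replicate 1 (44.5 CPM). The Δ22 call was lost in the ComBat-adjusted values (-0.84). COL8A2, which can join COL8A1 in one trimer, was at 0.36 to 1.92 CPM in single libraries and was called in no comparison against iEF. COL10A1, a collagen of growth plate cartilage, was at 0.243 to 1.21 CPM and was higher in mut9 (1.06 ± 0.35, adjusted p = 0.0482), its one call against iEF, with overlapping groups. It was lost without the replicate block (1.01), with RLE normalization (1.04), with the compared groups alone (1.08) and in 14 of the 21 fits with 1 library left out (0.82 to 1.16).

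COL7A1, whose product anchors epithelium to the tissue below, was at 5.96, 13.5 and 6.26 CPM in iLuc and 192, 161 and 187 in iEF (-4.4 ± 0.32, adjusted p = 5.61e-10). It was lower than in iEF in WT-EF, at 27.5, 29.4 and 21.5 CPM (-2.8 ± 0.29, adjusted p = 3.36e-07), in mut9, at 78.6, 46.2 and 73.2 (-1.45 ± 0.28, adjusted p = 0.00102), and in DAF, at 81.6, 63.5 and 84.8 (-1.23 ± 0.28, adjusted p = 0.00805), and none of these libraries reached the iEF range. Δ22 (-0.79 ± 0.28, adjusted p = 0.157) and DAF-mut9 (-0.55 ± 0.27, adjusted p = 0.368) were not called, although their libraries too lay below those of iEF. The DAF call was lost with DAF replicate 2 left out (-1.07).

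The multiplexins, collagens of vascular and epithelial basement membrane zones, were lower with every form that was called. COL15A1 was at 0.0771, 0.0663 and 0.15 CPM in iLuc, which is 3, 3 and 6 counts, and at 3.97, 13.2 and 8.78 in iEF (-6.41 ± 0.5, adjusted p = 1.68e-09). It was at 0.312, 0.194 and 0.589 CPM in WT-EF (-4.54 ± 0.42, adjusted p = 7.13e-08), 1.25, 0.761 and 0.989 in mut9 (-3.07 ± 0.38, adjusted p = 7.84e-06), 2.37, 1.72 and 2.91 in DAF (-1.86 ± 0.36, adjusted p = 0.00219) and 3.43, 3.44 and 2.95 in Δ22 (-1.37 ± 0.34, adjusted p = 0.0356). All libraries of these groups were below all iEF libraries. The Δ22 call was lost without any one of iEF replicates 2 or 3, Δ22 replicates 1, 2 or 3 and DAF-mut9 replicate 1 (-1.47 to -0.83). In DAF-mut9, at 3.83, 4.36 and 2.74 CPM, replicate 2 was above the lowest iEF library and the gene was not called (-1.21 ± 0.34, adjusted p = 0.0567). COL18A1, the precursor of endostatin, was at 1.9, 2.94 and 1.98 CPM in iLuc and 9.24, 17.6 and 9.21 in iEF (-2.38 ± 0.25, adjusted p = 1.25e-07), and was lower in WT-EF (-1.56 ± 0.24, adjusted p = 3.86e-05), mut9 (-1.26 ± 0.24, adjusted p = 0.000856) and DAF (-0.89 ± 0.24, adjusted p = 0.023). Its DAF call was lost with the compared groups alone (-0.9) and without any one of iEF replicate 2 and DAF replicates 1 or 2 (-0.81 to -0.61). COL18A1 shares 18.5% of its exon bases with SLC19A1 on the opposite strand. Counting by strand is not stated, so its counts are uncertain to that extent.

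The basement membrane genes lie in 3 head-to-head pairs, and only the first was of high level. COL4A1, whose product joins that of COL4A2 in the type IV trimer found in most basement membranes, was at 81.4, 97.1 and 74.1 CPM in iLuc and 138, 228 and 125 in iEF (-0.94 ± 0.18, adjusted p = 0.00025), and COL4A2 at 184, 226 and 183 and 386, 623 and 366 (-1.2 ± 0.17, adjusted p = 6.79e-06). Both were lower in WT-EF as well, with COL4A1 at 79.5, 71.3 and 72.3 (-1.1 ± 0.18, adjusted p = 8.5e-05) and COL4A2 at 249.5, 244 and 229.8 CPM (-0.9 ± 0.17, adjusted p = 0.000314). In Δ22, DAF, mut9 and DAF-mut9 neither was called, with log2 fold changes of -0.18 to 0.07 for COL4A2 and 0.05 to 0.29 for COL4A1. The ratio of COL4A1 to COL4A2 per kb lay between 0.406 ± 0.0186 (SD, n = 3) in WT-EF and 0.645 ± 0.099 in DAF.

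The starts of COL4A1 and COL4A2 face away from each other across 126 bases of chromosome 13, the shortest such gap of the 3 pairs, which is why it is shown (RefSeq, GRCh38.p14, read on the strand of COL4A2).
COL4A1/COL4A2 (chr13:110307158-110307283, plus strand): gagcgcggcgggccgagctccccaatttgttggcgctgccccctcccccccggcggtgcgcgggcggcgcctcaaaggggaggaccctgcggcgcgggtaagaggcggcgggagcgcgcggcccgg
It is 80.2% G and C and holds no GGAA or TTCC on either strand, so no base is in capitals. The starts of COL4A4 and COL4A3 are 418 bases apart, and those of COL4A6 and COL4A5 are 379 or 1415 bases apart, depending on the start of COL4A6.

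The other type IV genes, whose products belong to a few specialised membranes such as that of the glomerulus, were low and less certain. COL4A4 was at 0.385, 0.862 and 0.551 CPM in iLuc and 1.17, 1.13 and 1.51 in iEF (-1.04 ± 0.31, adjusted p = 0.0093), and lower in WT-EF (-1.86 ± 0.32, adjusted p = 0.000155), DAF (-1.12 ± 0.31, adjusted p = 0.0306) and mut9 (-1.01 ± 0.3, adjusted p = 0.0289). The iEF libraries were above all libraries of these 4 groups, but the DAF call was lost without the replicate block (-1.12), with the compared groups alone (-1.13) and without any one of iEF replicates 1, 2 or 3 and DAF replicates 1, 2 or 3 (-1.16 to -1.07), and the mut9 call without the replicate block (-1.0), with the compared groups alone (-1.05) and without any one of iEF replicates 1, 2 or 3 and mut9 replicates 1 or 2 (-1.08 to -0.79). COL4A3 was not called in any comparison with iEF, with -0.76 ± 0.32, adjusted p = 0.0599 in iLuc, and shares 6.82% of its exon bases with a gene on the opposite strand. COL4A6 held 1, 1 and 3 counts in iLuc and 21, 3 and 64 in iEF. It was called lower in iLuc (adjusted p = 4.46e-05) and in WT-EF (-2.02 ± 0.53, adjusted p = 0.00611), where it held 9, 6 and 4 counts, and the WT-EF call was lost with the compared groups alone (-1.9), with iEF replicate 3 left out (-1.16) and with WT-EF replicate 3 left out (-1.34). COL4A5 held 2 to 20 counts in a library and was not called against iEF.

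2 collagen genes were higher in iLuc. COL21A1 (ENSG00000124749, chr6:55921388-56258892, hg19) encodes a small fibril-associated collagen, and was at 131, 219.9 and 64.2 CPM in iLuc and 6.37, 12.2 and 8.62 in iEF (3.88 ± 0.31, adjusted p = 2.52e-09). WT-EF gave 59.2, 95.4 and 72.3 CPM (3.08 ± 0.3, adjusted p = 1.39e-07) and mut9 78.4, 126 and 55.8 (3.23 ± 0.3, adjusted p = 2.27e-07), so that no library of these 3 groups came near an iEF library. With DAF it was at 22.9, 13.9 and 19.5 CPM (1.13 ± 0.29, adjusted p = 0.0188), with DAF-mut9 at 19.6, 19.8 and 16.9 (1.09 ± 0.29, adjusted p = 0.041) and with Δ22, which lacks the EWS domain, at 15.3, 19.9 and 18.1 (1.0 ± 0.29, adjusted p = 0.0719, not called). These 3 groups overlapped each other. The DAF call was lost without the replicate block (1.06), in the ComBat-adjusted values (1.19) and without any one of iEF replicate 1 and DAF replicates 1 or 3 (0.9 to 0.98), and the DAF-mut9 call without the replicate block (1.06), in the ComBat-adjusted values (1.16) and without any one of iEF replicates 1, 2 or 3, WT-EF replicate 2, Δ22 replicate 1 and DAF-mut9 replicates 1, 2 or 3 (0.9 to 1.22). COL25A1 (ENSG00000188517, chr4:109729881-110223908, hg19), a membrane-bound collagen of neurons, was at 13.9, 31.1 and 21.2 CPM in iLuc and 2.87, 2.25 and 3.24 in iEF (2.97 ± 0.32, adjusted p = 1.4e-07). It was at 6.44, 10.2 and 21.3 CPM in WT-EF (2.05 ± 0.31, adjusted p = 3.08e-05) and 4.46, 7.05 and 10.1 in mut9 (1.29 ± 0.31, adjusted p = 0.00586), above every iEF library in both, and was not called with DAF (0.44 ± 0.31, adjusted p = 0.502), Δ22 (0.66 ± 0.31, adjusted p = 0.338) or DAF-mut9 (0.95 ± 0.31, adjusted p = 0.105).

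The 250 bases before the start of these 2 genes are shown because they alone were higher in iLuc, with GGAA and TTCC in capitals (RefSeq, GRCh38.p14, strand of the gene). COL21A1 has 3 starts in RefSeq, of which one is given.
COL21A1 (chr6:56247581-56247830, minus strand): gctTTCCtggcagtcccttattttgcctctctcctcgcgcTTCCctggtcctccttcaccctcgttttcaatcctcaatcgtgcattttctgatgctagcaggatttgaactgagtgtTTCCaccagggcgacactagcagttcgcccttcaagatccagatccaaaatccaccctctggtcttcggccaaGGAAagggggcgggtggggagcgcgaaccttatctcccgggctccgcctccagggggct
COL25A1 (chr4:109302659-109302908, minus strand): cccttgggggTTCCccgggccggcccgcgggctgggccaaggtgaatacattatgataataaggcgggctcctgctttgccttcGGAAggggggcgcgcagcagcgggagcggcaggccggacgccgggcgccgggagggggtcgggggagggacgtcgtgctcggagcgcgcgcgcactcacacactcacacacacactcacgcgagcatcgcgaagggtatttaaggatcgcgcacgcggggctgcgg
COL21A1 held 4 cores in this window and COL25A1 held 2, none of them next to another.

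The transmembrane genes other than COL25A1 split. COL13A1, an adhesion protein of muscle and nerve endings, was at 18.4, 16.8 and 13 CPM in iLuc and 65, 36.2 and 40.2 in iEF (-1.52 ± 0.19, adjusted p = 1.51e-06), and lower in WT-EF, at 10.7, 9.12 and 10.6 (-2.18 ± 0.2, adjusted p = 4.45e-08), and mut9, at 19.1, 18.8 and 26.9 (-1.08 ± 0.19, adjusted p = 0.000386). It was higher in Δ22, at 89.9, 74.1 and 62.2 CPM (0.7 ± 0.19, adjusted p = 0.0468), and in DAF-mut9, at 93.6, 75.3 and 83.2 (0.86 ± 0.19, adjusted p = 0.0133), and in DAF was not called (-0.26 ± 0.19, adjusted p = 0.496). Only the DAF-mut9 libraries cleared the iEF range, since Δ22 replicate 3 fell below iEF replicate 1. The Δ22 call was lost without the replicate block (0.68), in the ComBat-adjusted values (0.66) and in 15 of the 21 fits with 1 library left out (0.6 to 0.83), and the DAF-mut9 call without the replicate block (0.83) and without any one of iEF replicate 3 and DAF-mut9 replicates 1, 2 or 3 (0.79 to 0.9). COL17A1, which ties epithelial cells to their basement membrane, was at 0.385, 0.376 and 0.977 CPM in iLuc and 5.62, 2.16 and 9.92 in iEF (-3.27 ± 0.37, adjusted p = 3.52e-07), and was lower in WT-EF (-2.36 ± 0.35, adjusted p = 2.17e-05) and mut9 (-1.39 ± 0.33, adjusted p = 0.00566). The mut9 call was lost in the ComBat-adjusted values (-1.13) and with iEF replicate 3 left out (-0.94). COL23A1 held 1 to 7 counts in a library and was called in no comparison.

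Among the fibril-associated genes, COL22A1, a collagen of muscle and tendon junctions, was not detected in iLuc. It had 0 counts in all 3 iLuc libraries and 3.34, 2.25 and 6.57 CPM in iEF, at least 55.6-fold lower when iLuc is set to 3 counts per library, a limit that covers counting error only. In WT-EF it was at 0.192, 0.169 and 0.246 CPM (-4.3 ± 0.45, adjusted p = 7.28e-07), in mut9 at 0.601, 0.663 and 0.989 (-2.44 ± 0.39, adjusted p = 0.000195) and in DAF at 1.75, 1.84 and 0.876 (-1.43 ± 0.37, adjusted p = 0.022), below every iEF library in each case. The DAF call was lost with the compared groups alone (-1.34), with iEF replicate 3 left out (-0.84) and with DAF replicate 3 left out (-1.05). In Δ22 and DAF-mut9 it was at 2.63, 3.12 and 1.89 and 2.8, 4.06 and 2.48 CPM, overlapping iEF and not called. COL12A1, a large protein on the surface of type I fibrils, was at 24.3, 37.7 and 25.5 CPM in iLuc and 57.6, 103 and 125 in iEF (-1.72 ± 0.21, adjusted p = 1.19e-06), and lower in WT-EF (-1.42 ± 0.21, adjusted p = 2.56e-05) and mut9 (-0.85 ± 0.21, adjusted p = 0.00767). The mut9 call was lost with the compared groups alone (-0.84), with iEF replicate 3 left out (-0.52) and with mut9 replicate 3 left out (-0.67).

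COL14A1, a relative of COL12A1, was low except in Δ22 and DAF-mut9. It held 1, 2 and 2 counts in iLuc, 8, 2 and 6 in iEF, 20, 39 and 14 in Δ22 and 41, 54 and 32 in DAF-mut9, which made it higher than in iEF in Δ22 (1.98 ± 0.51, adjusted p = 0.0392) and in DAF-mut9 (2.93 ± 0.48, adjusted p = 0.00179). All Δ22 and DAF-mut9 libraries were above all iEF libraries. The Δ22 call was lost with the compared groups alone (2.0), in the ComBat-adjusted values (1.73) and in 9 of the 21 fits with 1 library left out (1.46 to 2.25). Type IX collagen, which coats cartilage fibrils, had 2 chains of measurable level. COL9A3 was at 9.02, 12.8 and 5.66 CPM in iLuc and 14.6, 38.2 and 15.9 in iEF (-1.29 ± 0.27, adjusted p = 0.00049). It was lower in WT-EF (-1.78 ± 0.27, adjusted p = 3.51e-05), mut9 (-1.69 ± 0.27, adjusted p = 0.000151), Δ22 (-1.11 ± 0.27, adjusted p = 0.0282) and DAF, where it was at 5.05, 4.1 and 5.32 CPM (-2.13 ± 0.28, adjusted p = 5.25e-05), the lowest mean of the 7 groups. The Δ22 call was lost without the replicate block (-1.16) and without any one of iEF replicates 2 or 3 and Δ22 replicates 1, 2 or 3 (-1.23 to -0.71). COL9A3 shares 3.2% of its exon bases with TCFL5 on the opposite strand. COL9A2 was lower in WT-EF alone (-1.07 ± 0.27, adjusted p = 0.00462), at 3.6, 3.6 and 3.91 against 8.94, 10.1 and 5.21 CPM in iEF. COL9A1 and COL20A1 held at most 10 and 13 counts in a library and were not called, and COL26A1 and COL28A1 stayed at or below 0.257 and 0.972 CPM and were not called.

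**Figure D3:**
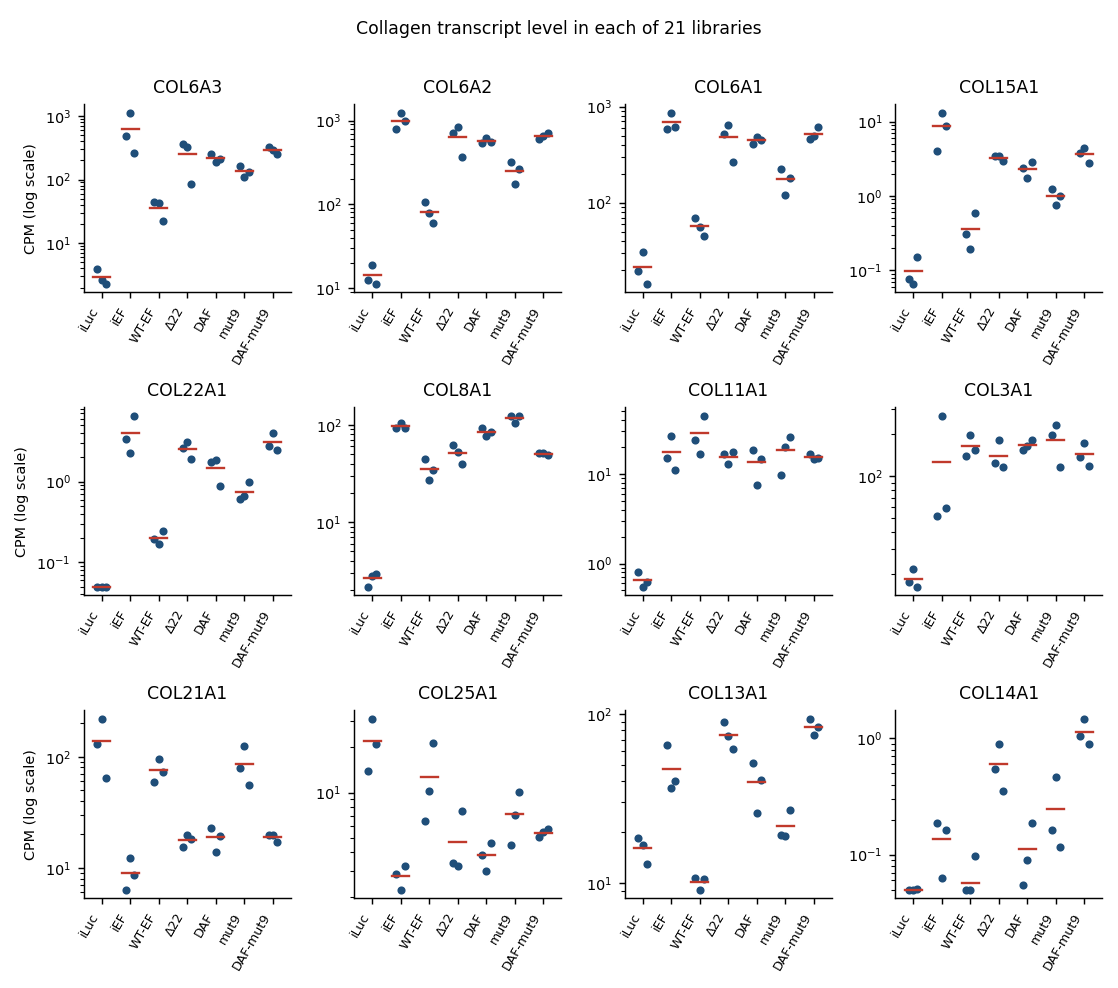
CPM on a log axis (y axis) of 12 collagen genes in each library (points) of the 7 groups (x axis), with the group mean as a line and values under 0.05 CPM drawn at 0.05. COL6A3, COL6A2 and COL6A1 step up from iLuc through WT-EF and mut9, COL11A1 and COL3A1 are low in iLuc alone, and COL21A1 and COL25A1 run the other way.

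By construct, the number of collagens that differed from iEF was 25 in WT-EF, of which 23 were lower (16.9% of all genes tested were) and 2 higher (11.4%). In mut9 it was 15 lower (8.33%) and 4 higher (6.22%), the latter COL21A1, COL25A1, COL5A2 and COL10A1. In DAF it was 7 lower (4.02%) and 2 higher (3.41%), in Δ22 4 lower (1.79%) and 2 higher (0.881%), and in DAF-mut9 1 lower (2.14%) and 3 higher (1.26%). Medians over the 44 genes were -0.93 in WT-EF and between -0.2 and -0.28 in the other 4, and the 5 comparisons share the iEF libraries. Held under every alternative and with each library left out were 22 of the 25 calls in WT-EF, 11 of 19 in mut9, 3 of 9 in DAF, 0 of 6 in Δ22 and 2 of 4 in DAF-mut9. Among all the calls, genes without a ComBat-adjusted value were 5 of the 25 in WT-EF, 4 of the 19 in mut9, 3 of the 9 in DAF, 2 of the 6 in Δ22 and 0 of the 4 in DAF-mut9. Without the replicate block there were 3 calls in Δ22 and 2 in DAF-mut9. COL6A5 in WT-EF (-0.96 ± 0.32, adjusted p = 0.0309), for example, lost its call without the replicate block (-1.02), with the compared groups alone (-0.95), in the ComBat-adjusted values (-0.65) and without any one of iEF replicates 2 or 3 and WT-EF replicates 2 or 3 (-0.93 to -0.79). Leaving out any Δ22 library left 1 call in Δ22, leaving out DAF replicate 1 left 5 in DAF, and leaving out iEF replicate 3 or any DAF-mut9 library left 2 in DAF-mut9.

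WT-EF was then compared directly with iLuc, to see whether the re-expressed fusion gives the levels of undepleted cells. 17 collagens were higher in WT-EF (9.78% of all genes tested were) and 3 lower (8.52%), with a median of 0.52. All 4 of the beaded filament genes called were higher, with COL6A3 at 3.6 ± 0.41, adjusted p = 1.79e-06 and COL6A2 at 2.52 ± 0.27, adjusted p = 8.93e-07, as were both multiplexins, COL7A1 (1.6 ± 0.29, adjusted p = 0.000458) and 6 of 11 fibrillar genes. COL8A1 was higher by 3.71 ± 0.18, adjusted p = 2.1e-11. Of the basement membrane genes COL4A1 (-0.16 ± 0.18, adjusted p = 0.614) and COL4A2 (0.29 ± 0.17, adjusted p = 0.266) were not called. COL22A1, at 0 counts in iLuc, was at least 2.78-fold higher in WT-EF against the limit of 3 counts per library, with which the median stayed at 0.52. The 3 lower genes were COL21A1 (-0.8 ± 0.28, adjusted p = 0.0487), COL25A1 (-0.92 ± 0.29, adjusted p = 0.0294) and COL13A1 (-0.66 ± 0.19, adjusted p = 0.0188). For the first 2, iLuc and WT-EF libraries overlapped. Of the 20 calls, 12 held under every alternative and with each library left out.

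The lower call of COL21A1 was lost without the replicate block (-0.87), in the ComBat-adjusted values (-0.7) and in 16 of the 21 fits with 1 library left out (-0.91 to -0.47). That of COL25A1 was lost without the replicate block (-0.8) and without any one of iLuc replicate 2 and WT-EF replicates 1 or 2 (-0.82 to -0.46), and that of COL13A1 without the replicate block (-0.66), in the ComBat-adjusted values (-0.5) and without any one of iLuc replicate 2 and WT-EF replicates 1 or 2 (-0.66 to -0.49). Among the higher genes, COL5A2 was lost without the replicate block (0.85) and COL6A1 in the ComBat-adjusted values (1.29). COL6A5, of low level, was lost without the replicate block (1.0), with RLE normalization (1.09), with no filter on low counts (1.09), with the compared groups alone (1.09), in the ComBat-adjusted values (1.41) and in 13 of the 21 fits with 1 library left out (0.86 to 1.18). COL15A1 was lost without any one of iLuc replicates 1 or 2 and WT-EF replicates 1 or 3 (1.36 to 1.95). COL18A1 was lost without any one of iLuc replicates 1 or 3 and WT-EF replicates 1, 2 or 3 (0.75 to 0.85).

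**Figure D4:**
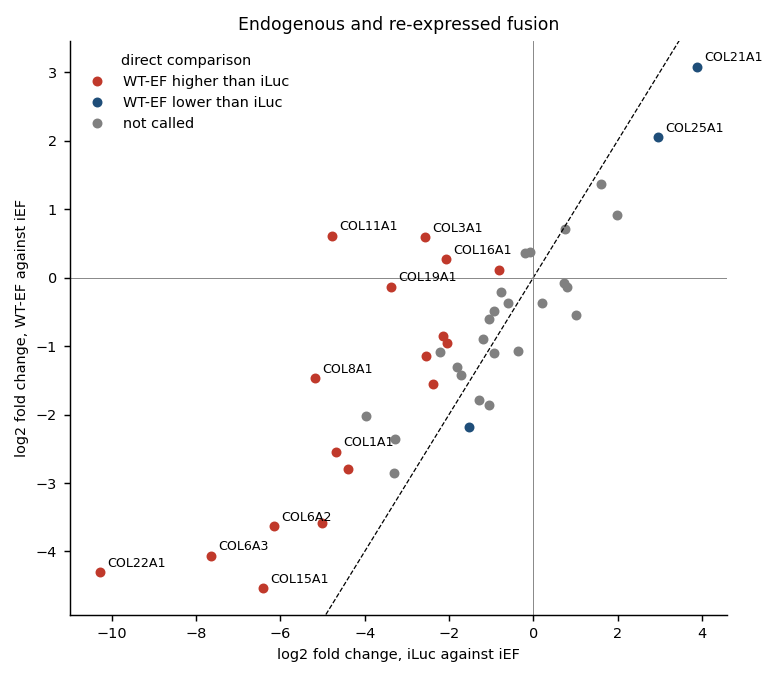
Log2 fold change against iEF of the 44 collagen genes in iLuc (x axis) and in WT-EF (y axis), both set against the same iEF libraries, with the line of equal change dashed and genes colored by the direct comparison of WT-EF with iLuc. COL11A1 and COL3A1 lie at -4.78 and -2.56 on the x axis but at 0.61 and 0.59 on the y axis. The x value of COL22A1, absent from iLuc, depends on the prior count of the fit.

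Set against WT-EF, mut9 asks what shortening the EWS domain changes. In mut9 13 genes were higher than in WT-EF (4.95% of all genes tested were) and 0 were lower (1.2%), with a median of 0.6. DESeq2 called 0 lower as well, and 1 was lower at an unadjusted p below 0.05. Among them were COL6A3 (2.0 ± 0.36, adjusted p = 0.0015), COL8A1 (1.74 ± 0.16, adjusted p = 2.81e-06), COL6A1 (1.66 ± 0.27, adjusted p = 0.000664), COL6A2 (1.66 ± 0.26, adjusted p = 0.000444) and COL1A1 (1.56 ± 0.29, adjusted p = 0.00166), and in each of them the 3 mut9 libraries were above the 3 WT-EF libraries. All mut9 libraries were above all WT-EF libraries for 14.8% of all genes tested. 6 of the 13 calls held under every alternative. COL5A3 (1.7 ± 0.42, adjusted p = 0.0174) was lost in the ComBat-adjusted values (1.39) and without any one of WT-EF replicates 2 or 3 and mut9 replicate 1 (1.05 to 1.62). COL22A1 (1.86 ± 0.49, adjusted p = 0.0271) was lost without any one of WT-EF replicates 1, 2 or 3 and mut9 replicates 1 or 3 (1.58 to 2.01). The basement membrane gene COL4A2 was lost with WT-EF replicate 2 left out (0.75) and with mut9 replicate 1 left out (0.72), and COL5A1 with WT-EF replicate 2 left out (0.67). COL7A1 was lost with mut9 replicate 3 left out (1.13), COL6A1 in the ComBat-adjusted values (1.21) and COL6A5 without the replicate block (1.91) and in the ComBat-adjusted values (1.5).

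DAF against WT-EF addresses substitution of part of the repeat tyrosines in the full-length domain. In DAF 18 genes were higher than in WT-EF (14.3% of all genes tested were) and 4 were lower (10.6%). COL6A1 was higher by 2.98 ± 0.28, adjusted p = 1.57e-07, COL6A2 by 2.82 ± 0.27, adjusted p = 1.63e-07, COL6A3 by 2.68 ± 0.37, adjusted p = 1.31e-05, COL1A1 by 2.36 ± 0.29, adjusted p = 3.87e-06 and COL13A1 by 1.92 ± 0.2, adjusted p = 3.67e-07, with no overlap of libraries. The 4 lower genes were COL21A1 (-1.94 ± 0.29, adjusted p = 3.17e-05), COL25A1 (-1.61 ± 0.3, adjusted p = 0.00041), COL11A1 (-1.04 ± 0.36, adjusted p = 0.0405) and COL11A2 (-0.62 ± 0.21, adjusted p = 0.0311). All DAF libraries were above all WT-EF libraries for 20.9% of all genes tested. Of the 22 calls, 19 held under every alternative. COL11A1 was lost without any one of WT-EF replicates 1 or 3, Δ22 replicate 1, DAF replicates 2 or 3 and DAF-mut9 replicate 1 (-1.15 to -0.6). COL11A2 was lost without the replicate block (-0.65), with no filter on low counts (-0.65) and without any one of WT-EF replicates 2 or 3 and DAF replicates 1 or 3 (-0.64 to -0.51). COL18A1 (0.67 ± 0.24, adjusted p = 0.0469) was lost without the replicate block (0.65), in the ComBat-adjusted values (0.42) and in 13 of the 21 fits with 1 library left out (0.34 to 0.75).

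Substitution in the shortened domain was tested as DAF-mut9 against mut9. 12 genes were higher (5.15% of all genes tested were) and 3 lower (4.68%). COL13A1 was higher by 1.95 ± 0.19, adjusted p = 7.47e-07, COL6A1 by 1.57 ± 0.27, adjusted p = 0.000405, COL6A2 by 1.36 ± 0.25, adjusted p = 0.00101, COL15A1 by 1.86 ± 0.37, adjusted p = 0.00206, COL12A1 by 1.14 ± 0.21, adjusted p = 0.000844 and COL14A1 by 2.21 ± 0.44, adjusted p = 0.00196. The 3 lower genes were COL21A1 (-2.14 ± 0.29, adjusted p = 3.07e-05), COL8A1 (-1.21 ± 0.16, adjusted p = 2.07e-05) and COL16A1 (-0.86 ± 0.27, adjusted p = 0.0472). Of the 15 calls, 8 held under every alternative. COL1A2 was lost without the replicate block (0.87) and COL6A1 in the ComBat-adjusted values (1.34). COL1A1 was lost in the ComBat-adjusted values (0.93), with mut9 replicate 2 left out (0.97) and with DAF-mut9 replicate 2 left out (0.93). COL16A1 was lost without the replicate block (-0.9), with RLE normalization (-0.83) and in 14 of the 21 fits with 1 library left out (-0.95 to -0.73). The call of COL17A1 was lost without the replicate block (1.22), in the ComBat-adjusted values (1.08) and without any one of mut9 replicates 1 or 2 and DAF-mut9 replicate 2 (0.96 to 1.3), and that of COL18A1 without any one of mut9 replicates 1 or 2 and DAF-mut9 replicates 1 or 3 (0.77 to 0.89). That of COL7A1 was lost without the replicate block (0.9), in the ComBat-adjusted values (0.78) and in 9 of the 21 fits with 1 library left out (0.66 to 1.01).

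The difference between these 2 substitution effects was itself tested. It was below 0 for 7 collagens (2.82% of all genes tested were) and above 0 for none (0.504%). DESeq2 called 9 below and 1 above 0, and at an unadjusted p below 0.05 there were 11 and 2. COL8A1 stood out, since DAF was above WT-EF by 1.28 and DAF-mut9 below mut9 by 1.21, a difference of -2.49 ± 0.22, adjusted p = 2.06e-06. For COL5A1 the effect was 1.32 ± 0.16, adjusted p = 3.04e-06 in the full-length and 0.3 ± 0.16, adjusted p = 0.286 in the shortened domain (difference -1.02 ± 0.22, adjusted p = 0.0117), and for COL4A1 1.39 ± 0.18, adjusted p = 8e-06 and 0.22 ± 0.18, adjusted p = 0.57 (difference -1.17 ± 0.25, adjusted p = 0.0107). For COL5A2 the effects were 0.96 and -0.18 (difference -1.14 ± 0.31, adjusted p = 0.0492), for COL5A3 2.77 and 0.48 (difference -2.29 ± 0.59, adjusted p = 0.0322). COL6A1 (-1.4 ± 0.37, adjusted p = 0.0394) and COL6A2 (-1.46 ± 0.36, adjusted p = 0.0238) were higher after substitution in both forms, by more in the full-length one. Of the 7, only COL8A1 held under every alternative and with each library left out. COL4A1 was lost with WT-EF replicate 2 left out (-1.02) and with mut9 replicate 1 left out (-0.92). COL5A1 was lost without any one of WT-EF replicates 1 or 2, DAF replicate 3 and mut9 replicates 1 or 3 (-0.97 to -0.89). The call of COL5A2 was lost without the replicate block (-1.16), with RLE normalization (-1.12), in the ComBat-adjusted values (-0.94) and in 16 of the 21 fits with 1 library left out (-1.26 to -0.95), and that of COL5A3 in the ComBat-adjusted values (-1.88) and without any one of WT-EF replicates 2 or 3, DAF replicate 2, mut9 replicate 1 and DAF-mut9 replicates 1, 2 or 3 (-2.33 to -1.61). For COL6A1 the call was lost without the replicate block (-1.39), in the ComBat-adjusted values (-0.99) and in 11 of the 21 fits with 1 library left out (-1.54 to -1.15), and for COL6A2 without any one of WT-EF replicates 2 or 3, DAF replicates 2 or 3, mut9 replicates 1 or 3 and DAF-mut9 replicates 1 or 2 (-1.47 to -1.24). Without WT-EF replicate 2 or mut9 replicate 1, 1 call was left.

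**Figure D5:**
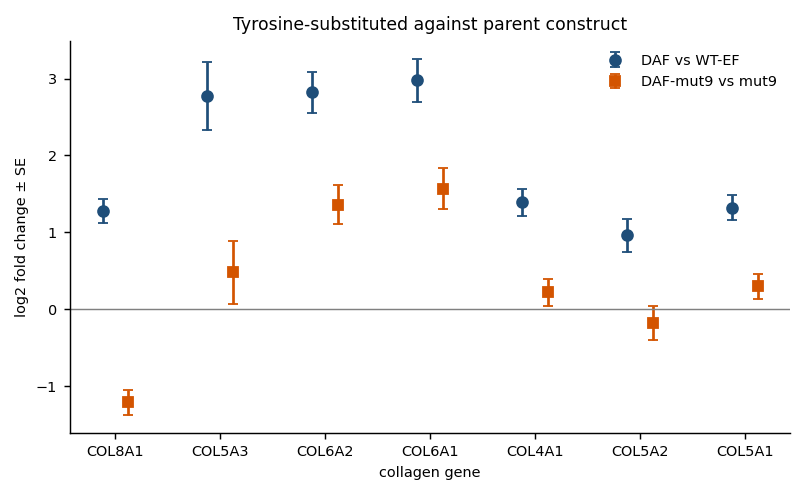
Log2 fold change ± SE (y axis) of DAF against WT-EF (circles) and of DAF-mut9 against mut9 (squares) for the 7 collagen genes (x axis) at which the 2 effects differed. COL8A1 lies at 1.28 and -1.21, on opposite sides of 0, and COL6A1 and COL6A2 lie above 0 in both.

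Against Δ22, DAF differed at 3 collagens. COL8A1 was higher (0.73 ± 0.16, adjusted p = 0.0221; 0.789% of all genes tested were higher), and COL13A1 (-0.97 ± 0.19, adjusted p = 0.00924) and COL14A1 (-2.38 ± 0.54, adjusted p = 0.0322) were lower (0.183%). The libraries of the groups did not overlap for any of the 3. Over all genes tested, all DAF libraries were above all Δ22 libraries for 6.6% and below them for 6.83%. None of these calls held under every alternative. COL8A1 was lost in the ComBat-adjusted values (0.64) and without any one of Δ22 replicates 2 or 3 and DAF replicates 1, 2 or 3 (0.56 to 0.79). COL13A1 was lost without the replicate block (-0.94) and without any one of Δ22 replicates 1 or 2 and DAF replicate 2 (-0.94 to -0.78). COL14A1 was lost in the ComBat-adjusted values (-2.11) and without any one of Δ22 replicates 1 or 2 and DAF replicates 1 or 2 (-2.33 to -2.06), and without Δ22 replicate 2 or DAF replicate 2 there was no call. DAF-mut9 and Δ22 did not differ by the test at any collagen in either direction (0.0% of all genes tested were higher and 0.0% lower), with 2 of the 44 at an unadjusted p below 0.05 and 0 called by DESeq2. These 2 were COL26A1 (1.28 ± 0.53, adjusted p = 1.0) and COL14A1 (0.95 ± 0.4, adjusted p = 1.0), and COL8A1 gave -0.02 ± 0.16, adjusted p = 1.0.

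The transcripts of partner chains, which can join in one trimer, were compared within each library per kb. COL6A1 to COL6A2 was 1.49, 1.56 and 1.22 in iLuc and between 0.599 and 0.828 in the other 18 libraries, without overlap. COL6A3 to COL6A1 was 0.0382 ± 0.0149 (SD, n = 3) in iLuc and 0.22 ± 0.112 in iEF, and 0.128 to 0.203 in the means of the constructs. COL1A1 to COL1A2 was 0.0556, 0.0325 and 0.197 in iLuc, 0.148, 0.0842 and 0.142 in WT-EF and 0.376, 0.244 and 0.364 in iEF, so that iLuc and WT-EF overlapped each other but not iEF. COL5A1 to COL5A2 was 0.152 ± 0.067 in iLuc, 0.182 ± 0.00791 in WT-EF and 0.376 ± 0.11 in iEF. COL8A1 to COL8A2 was 1.54 ± 1.21 in iLuc and 30 ± 16 or more in every other group mean. These ratios were not tested.

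Genes that modify, fold, cut, bind or sense collagen were followed as a list of 50, of which 49 were tested (LAIR1 was not). In iLuc 38 were lower than in iEF and 4 higher, with a median of -1.47, beside the 22.4% and 18.7% of all genes tested given above. Of the 15 genes listed for hydroxylation and glycosylation of collagen chains, not all of them enzymes of these steps, 14 were lower and 1 higher. Of the 8 chaperone and export genes 5 were lower, and of the 8 propeptide processing genes 5 were lower and 1 higher. Of 10 fibril-binding matrix genes 8 were lower and 1 higher, and of 8 receptors 6 and 1. WT-EF had 30 lower and 2 higher, beside 16.9% and 11.4% of all genes tested. mut9 had 18 and 5 (8.33% and 6.22%), DAF 5 and 6 (4.02% and 3.41%), Δ22 3 and 5 (1.79% and 0.881%) and DAF-mut9 2 and 6 (2.14% and 1.26%). ITGA11, the integrin chain that binds type I collagen on stromal cells, was at 0.283, 0.265 and 0.175 CPM in iLuc and 29.2, 30.3 and 27.7 in iEF (-6.9 ± 0.28, adjusted p = 2.08e-13), and at 4.93, 3.05 and 3.93 in WT-EF (-2.89 ± 0.21, adjusted p = 2.84e-09). ITGA10, a collagen receptor of cartilage, was at 0.514, 0.575 and 0.576 and 51.7, 74 and 41.9 CPM (-6.65 ± 0.28, adjusted p = 2.49e-13). THBS1, a matrix protein that binds collagen and cells, was at 1.18, 1.04 and 0.877 and 79.3, 95 and 88.6 CPM (-6.4 ± 0.18, adjusted p = 2.89e-15), at 5.55, 4.86 and 6.14 in WT-EF (-3.99 ± 0.15, adjusted p = 1.37e-12), and higher than in iEF in Δ22, DAF and DAF-mut9 (0.62, 0.65 and 0.77). All libraries of iLuc and WT-EF were below all iEF libraries for ITGA11 and THBS1.

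Among the genes of this list that were higher in iLuc, TLL1, a protease that trims procollagen, was at 39.5, 32.4 and 30.2 CPM in iLuc and 4.71, 8.57 and 6.43 in iEF (2.36 ± 0.23, adjusted p = 3.94e-08). It was not called in WT-EF, at 5.19, 4.43 and 3.95 CPM (-0.55 ± 0.23, adjusted p = 0.0808), and was higher in DAF, at 46.3, 32.9 and 27.5 (2.41 ± 0.23, adjusted p = 1.36e-06), and in mut9 (1.78 ± 0.23, adjusted p = 1.09e-05), Δ22 (1.32 ± 0.22, adjusted p = 0.00294) and DAF-mut9 (1.31 ± 0.22, adjusted p = 0.00229). COLGALT2, which adds galactose to collagen chains, was at 60.2, 50.4 and 41 CPM in iLuc and 16.3, 24.6 and 15.7 in iEF (1.43 ± 0.14, adjusted p = 3.41e-08), and was called with no construct, at -0.17 in mut9 to 0.29 in DAF.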

How the data were processed

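RNA-seq libraries of A673 cells were compared over 7 groups of 3, grouped by the labels. The deposited counts are the authors' whole-number htseq-count values per Ensembl gene (intersection-strict mode), from 150-bp paired-end reads aligned to hg19 with STAR (version 2.5.1b in the submitters' processing notes). The annotation release and the strand setting are not given in the sources used here. A second deposited table holds a signal that the authors made from these counts by removing low genes and adjusting for the replicate set with ComBat, and it served as an alternative only, with values for 38 of the 44 collagen genes. The collagens without a value in it ranged from COL4A6, at a mean of 0.498 CPM over all libraries, to COL6A2, at 459. COL9A1, at 0.0909 CPM, had a value. Why these genes are missing was not tested. The authors' table of fold changes and p-values was not used. The DAF-mut9 columns carry the name mut9d and were assigned from that group's title and by elimination.

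Symbols were taken from the GENCODE annotation in GRCh37 coordinates. Genes averaging 1 count or more over the libraries (30549) were fitted together in edgeR 4.0.16 (R 4.3.3) with TMM scaling, a group term and the replicate number as a block, as in the study's own adjustment, using the quasi-likelihood test and Benjamini-Hochberg adjustment over all genes, called below 0.05. Log2 CPM for comparing single libraries used a prior count of 2. Alternatives were DESeq2 1.42.0, no block, RLE scaling, no low-count filter, the compared groups alone, the ComBat-adjusted signal (limma 3.58.1, log2 of the value plus 1) and leaving out each library. The fit was checked on simulated counts. The 3 libraries of a group differed by more than sampling noise, and the study describes its replicates as repeated knockdown and rescue experiments in this line. The p-values measure the spread between those that is left after shifts shared by a replicate set are taken out by the block.

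Library values are given for the up to 4 largest calls each way against iEF (mean of at least 1 CPM, same direction in all 3 replicate sets), the 5 highest genes per kb, chain partners, genes called for the difference between the substitution effects, and the up to 3 largest processing or receptor genes each way. Other genes with library values were named to account for every member. The members, lists and rules were chosen with earlier results of these data known. Promoter windows come from RefSeq (GRCh38.p14).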

Additional observations from a re-analysis of the deposited data

Results flagged for a closer look

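For 7 collagen genes the effect of tyrosine substitution differed between the full-length EWS domain and its shortened form, by a test of the difference itself (edgeR's quasi-likelihood test, DAF-mut9 against mut9 minus DAF against WT-EF). The difference was -2.49 on the log2 scale for COL8A1, -2.29 for COL5A3, -1.46 for COL6A2, -1.4 for COL6A1, -1.17 for COL4A1, -1.14 for COL5A2 and -1.02 for COL5A1. Of all genes tested, 2.82% had a difference below 0 by the same test. Only the COL8A1 call held under every alternative and with each library left out, and the other calls were each lost in some of these fits. The substituted tyrosines are not the same set in both constructs, and FLI1 averaged 24.5 CPM in WT-EF, 37 in DAF, 30.7 in mut9 and 36.3 in DAF-mut9. The part of either in these values was not tested.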

How the results depend on the processing

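Counts of called collagens kept within 1.5 times of their value under every alternative for iLuc, WT-EF and mut9 against iEF and for DAF against WT-EF. Without the replicate block the count was 3 in place of 6 in Δ22 and 2 in place of 4 in DAF-mut9, and it stayed within 1.5 times elsewhere. The study's own processing adjusted each set of replicates as a batch. The correlation of deviations between libraries of the same replicate number was -0.0633 to 0.375 (median 0.124, against -0.0767 for different numbers), and 37 of 63 pairs were over 0.1. DESeq2 called 7 in DAF-mut9 against iEF. With no low-count filter the counts, against iEF, were 14 in Δ22, 15 in DAF and 14 in DAF-mut9, and were 21 for mut9 against WT-EF, 8 for DAF against Δ22 and 15 for the difference of the substitution effects. With the compared groups alone they were 7 for DAF-mut9 against iEF, 20 for mut9 against WT-EF, 7 for DAF against Δ22 and 13 for that difference. In the ComBat-adjusted values, which hold 38 of the 44 genes, they were 1 in Δ22 and 5 in DAF against iEF, 12 for WT-EF against iLuc, 7 for mut9 against WT-EF, 8 for DAF-mut9 against mut9, 1 for DAF against Δ22 and 3 for the difference. The cause of these shifts was not tested.

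With each of the 21 libraries left out in turn, the counts ran from 30 to 32 in iLuc, 22 to 26 in WT-EF, 1 to 7 in Δ22, 5 to 10 in DAF, 14 to 21 in mut9 and 2 to 6 in DAF-mut9 against iEF. They ran from 14 to 22 for WT-EF against iLuc, 9 to 16 for mut9 against WT-EF, 19 to 23 for DAF against WT-EF, 11 to 17 for DAF-mut9 against mut9, 0 to 4 for DAF against Δ22, 0 to 0 for DAF-mut9 against Δ22 and 1 to 9 for the difference of the substitution effects. The Δ22 count of 6 was 1 without any one of its own libraries, 3 without iEF replicate 2, WT-EF replicate 1 or DAF-mut9 replicate 2 or 3, and 2 without iEF replicate 3 or DAF-mut9 replicate 1. The count of 7 for the difference was 1 without WT-EF replicate 2 or mut9 replicate 1, 4 without WT-EF replicate 1 or 3 or DAF-mut9 replicate 2, and 3 without DAF replicate 2 or 3, mut9 replicate 3 or DAF-mut9 replicate 1. For DAF against Δ22 the count of 3 was 0 without Δ22 replicate 2 or DAF replicate 2 and 1 without Δ22 replicate 1 or DAF replicate 1. The largest calls against iEF, by the rule above, and the calls for the difference between the substitution effects gave 40 comparisons of single genes. Of these, 17 lost their call in at least 1 alternative that had a value for the gene, and none turned its direction. The other calls are not in this count. Genes under about 1 CPM rest on few counts, and 1 line cannot show how far the values hold in other Ewing sarcoma cells.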
